A study of Mus musculus with 6 samples.

Results

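The splicing factor genes described here belong to 4 families. They are the serine and arginine rich SR proteins (Srsf genes), the heterogeneous nuclear ribonucleoproteins (Hnrnp genes), the SF3 subunits read together with the U2AF subunits (Sf3a, Sf3b and U2af genes), and the Sm and other snRNP proteins (Snrp genes). All protein-coding genes of the count table whose symbols begin with these stems, the SR stem followed by a digit, were taken. That gave 55 of the 55487 genes in the table: 11 SR genes, 20 hnRNP genes, 12 SF3 and U2AF genes and 12 Snrp genes. Of these, 53 passed the filter on low counts and were tested.

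Poly(A)-selected RNA was sequenced in bulk from 4T1, a mammary carcinoma line from a BALB/c mouse. The treated cells had 10 µM cepharanthine (CEP), an alkaloid from Stephania plants, for 12 h, and the control cells had an equal volume of dimethyl sulfoxide (DMSO), the solvent, for the same time. Each group had 3 libraries, and transcript levels were compared between the groups. No source says whether the 3 libraries came from separate cultures, so the p-values measure the spread between these libraries, which may be technical.

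Introns are removed from precursor mRNA by the spliceosome, which is built from small nuclear RNAs in particles called snRNPs. Each of the U1, U2, U4 and U5 particles carries a ring of Sm proteins, the U2AF heterodimer reads the 3′ splice site, and the SF3A and SF3B complexes hold U2 on the branch point. SR proteins mostly favour the use of the exons they bind and hnRNPs often oppose it, although both act in either direction depending on position, and many genes of both families keep exons whose inclusion sends their own transcript to decay. Proliferating carcinoma cells use these factors heavily, and SRSF1 is known as an oncoprotein in human breast tissue.

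The upstream sequences of 4 members are shown because their motif matches can be set against 3 different outcomes: Hnrnpd and Hnrnpa3 were lower with CEP, Srsf5 was higher and Sf3b2 did not pass the test. They were chosen after their values and matches had been seen. Each is read 5′ to 3′ up to the base before the RefSeq transcription start (GRCm38.p6), in lower case, with capitals marking CACGTG (the E-box bound by MYC and related factors) or CCGGAAG (a core bound by ETS factors) on either strand. Hnrnpd is at chr5:99978939-99979138 on the minus strand, Hnrnpa3 at chr2:75659139-75659258 on the plus strand, Srsf5 at chr12:80945379-80945498 on the plus strand and Sf3b2 at chr19:5295456-5295575 on the minus strand.
Hnrnpd: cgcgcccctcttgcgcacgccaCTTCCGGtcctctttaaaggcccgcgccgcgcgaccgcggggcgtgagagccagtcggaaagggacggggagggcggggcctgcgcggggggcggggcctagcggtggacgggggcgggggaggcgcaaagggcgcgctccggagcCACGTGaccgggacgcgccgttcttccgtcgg
Hnrnpa3: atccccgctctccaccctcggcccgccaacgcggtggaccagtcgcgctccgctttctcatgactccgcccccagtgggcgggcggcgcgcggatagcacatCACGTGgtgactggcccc
Srsf5: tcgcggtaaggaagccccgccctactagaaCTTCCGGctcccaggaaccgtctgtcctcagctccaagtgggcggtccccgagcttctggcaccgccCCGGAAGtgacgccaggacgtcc
Sf3b2: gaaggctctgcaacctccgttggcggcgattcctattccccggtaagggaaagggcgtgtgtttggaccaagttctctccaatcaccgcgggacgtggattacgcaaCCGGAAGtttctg

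RefSeq held start windows (250 bases before to 50 after the start) for 48 of the 55 members, all but Hnrnpll, Hnrnpul2, U2af2, Sf3b5, Sf3b4, Snrpd1 and Snrpb. Of the 46 matched members that were tested, 16 (34.8%) held CCGGAAG or its reverse complement, against 20.9% of the 9606 matched genes tested. The match did not sort the members by response: 9 of the 27 lower members held it and 7 of the 19 others did. CACGTG was in 6 members (13.0%, against 11.9% of tested genes) and CCAAT in 24 (52.2%, against 43.4%). AAGATGGC, the core of YY1 sites, was in 2 members (4.3%, against 5.4%), and the palindrome of NRF1 was in 1 (2.2%, against 2.4%). None of the 5 motifs contains another, though CCGGAAG and AAGATGGC can share the letters AAG where they meet. These matches describe letters in a window and say nothing about binding.

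The 6 libraries held 15299261 to 19655010 counts, and depth did not separate the groups (exact two-sided permutation test, p = 0.9, with 0.1 the smallest p that 3 against 3 can give). CEP replicate 1 stood apart from the other treated libraries. On the first principal component, which took 60.7% of the variance, it lay at -10.1, while CEP replicates 2 and 3 lay at -28.5 and -30.4 and the DMSO libraries at 21.9 to 23.8. Its counts differed more from its replicates (chi-square per degree of freedom of 9.03 and 10.9) than those of CEP replicates 2 and 3 did from each other (2.27). Counts of members called are therefore given with and without it. The epithelial markers expected of 4T1 (keratins, Epcam, Cdh1 and others, 10 genes) summed to 3829 to 3999 CPM (counts scaled to a common library total) in CEP libraries and 4360 to 4524 CPM in DMSO libraries. Of the markers of other cells, the 8 haematopoietic genes summed to 39.1 to 54.7 CPM in CEP and 15.2 to 19.6 CPM in DMSO libraries, mainly through Cd68, with Adgre1 and Ly6g at 0 throughout. The 7 fibroblast genes summed to 85.7 to 101 CPM in CEP and 62.8 to 69.6 CPM in DMSO libraries with Col3a1 and Lum at 0, and the 5 endothelial genes stayed under 0.6 CPM with Kdr at 0. The part of these differences in the results was not tested.

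Transcripts of splicing factors were mostly lower in cepharanthine-treated cells, by modest amounts. Of the 53 members tested, 32 fell, 1 (Srsf5) rose and 20 did not pass edgeR's quasi-likelihood test at a Benjamini-Hochberg adjusted p under 0.05. The Snrp genes carried the deepest fall, 10 of 12 past the test with a median log2 fold change of -0.32, and the SF3 and U2AF genes the shallowest, 3 of 11 with a median of -0.12. SR genes counted 7 lower and 1 higher of 10 tested (median -0.22), and hnRNP genes 12 lower and 0 higher of 20 (median -0.19). No member changed 2-fold, and the largest change was in Snrpd1, which fell by 26.8%.

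Across all 13405 genes tested, 38.2% were called, 20.1% higher and 18.2% lower, with a median log2 fold change of 0.01. Among the members the lower share was 60.4% and the higher share 1.89%. Of the members, 33 averaged 100 CPM or more, so a second background was taken after the data had been seen. Of all 2518 genes at that level, 56.8% were called, 23.2% higher and 33.6% lower, with a median of -0.05. The 3 CEP values lay wholly below the 3 DMSO values in 33 of the 53 members and wholly above in 0. Over all tested genes, 49.9% did not overlap between groups, 24.7% with CEP lower and 25.2% with CEP higher. In bulk RNA, a smaller share of cells of one kind and less of a transcript per cell cannot be told apart, and CPM are shares of each library, so a change in total RNA per cell is not seen.

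**Figure D1:**
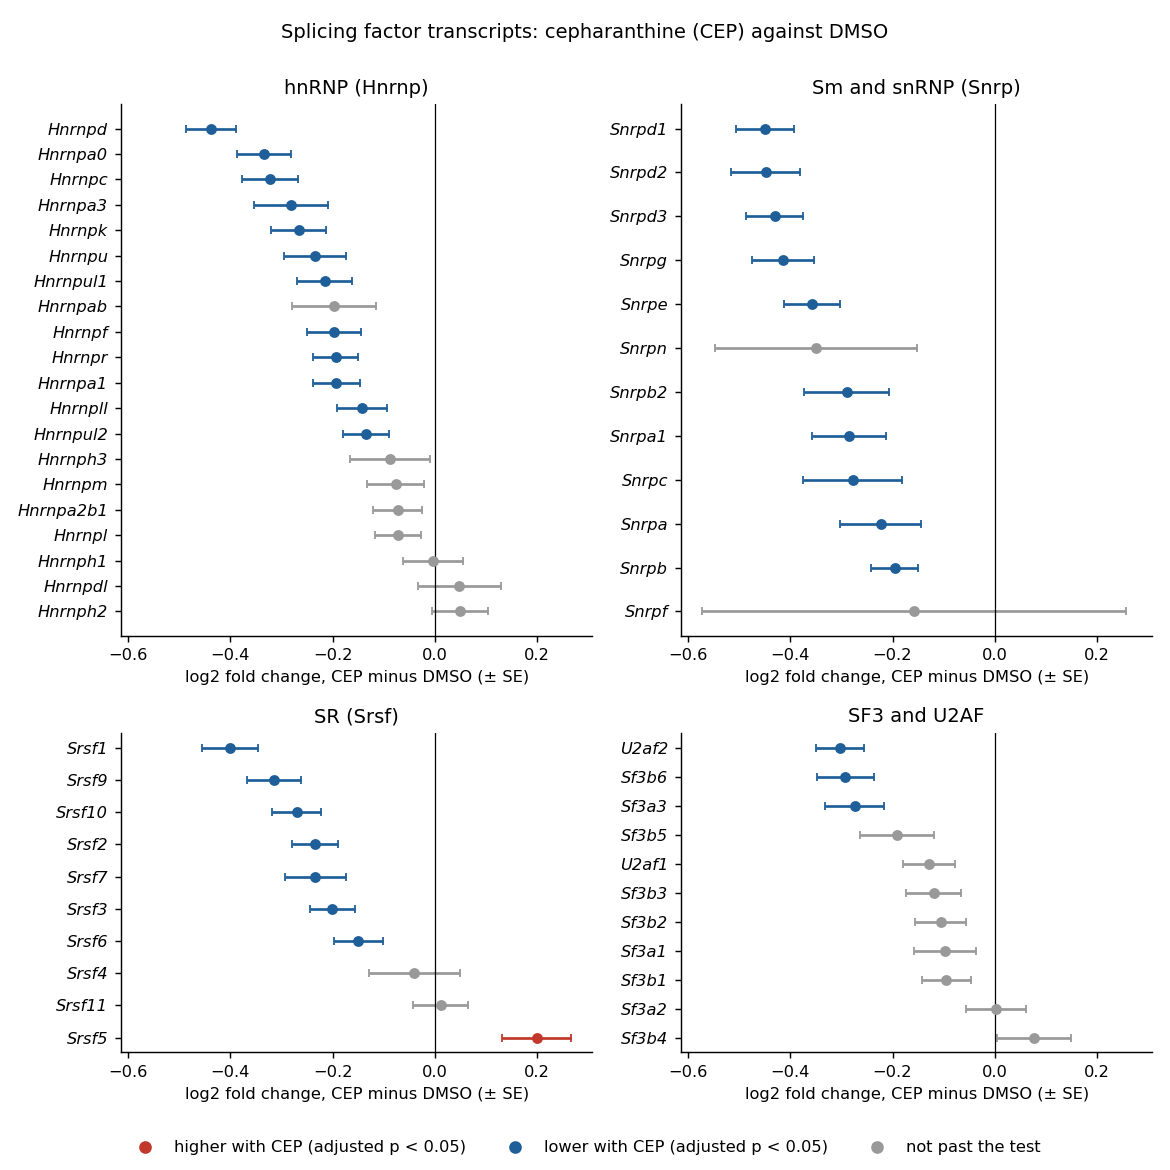
Log2 fold change (CEP minus DMSO, x axis) of each of the 53 tested members, one row per gene, by family; points are estimates and bars 1 SE from edgeR's quasi-likelihood fit on 3 libraries per group, with blue for lower, red for higher and grey for not past the test. All 12 Snrp genes lie left of 0, and Srsf5 is the red point.

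Without CEP replicate 1 the numbers called lower were 7 SR, 15 hnRNP, 9 SF3 and U2AF and 10 Snrp genes, the higher ones were 0 SR genes and 1 hnRNP gene (Hnrnpdl), and 6905 genes were called in all, against 5125 with it. The SF3 and U2AF count was thus 9 without that library and 3 with it. The share of all genes called lower without it was not taken, so these counts have no background beside them. Leaving out each of the 6 libraries in turn, the lower counts ran over 6 to 7 SR, 9 to 15 hnRNP, 3 to 9 SF3 and U2AF and 7 to 10 Snrp genes, the Snrp count being 7 or 8 in every case but that of CEP replicate 1. Summed over each family, CEP replicate 1 lay nearest to the DMSO libraries for hnRNP, SF3 with U2AF, and Snrp genes, but not for SR genes.

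The Snrp family summed to 888, 807 and 788 CPM in the CEP libraries and 1031, 1031 and 1043 CPM in the DMSO libraries, so the treated mean was 80% of the DMSO mean. The hnRNP sum was 7826, 7490 and 7423 CPM with CEP and 8503, 8473 and 8564 CPM with DMSO, or 89.0%. In these families, as in the SR and the SF3 and U2AF genes below, every CEP sum lay below every DMSO sum. SR genes summed to 2051, 2032 and 2095 CPM with CEP and 2341, 2245 and 2217 CPM with DMSO (90.8%). SF3 and U2AF genes summed to 2179, 2012 and 1958 CPM with CEP and 2257, 2235 and 2257 CPM with DMSO (91.1%), with CEP replicate 1 close below the lowest DMSO library.

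**Figure D2:**
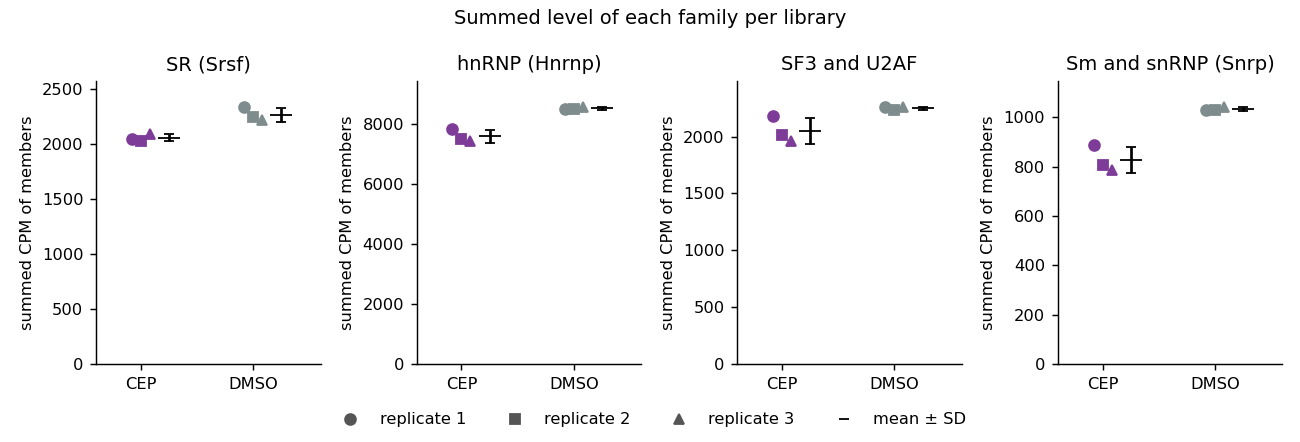
Summed CPM of the members of each family (y axis, from 0) in each library, CEP left and DMSO right, with marker shapes for the replicate numbers and bars for mean ± SD (n = 3). The CEP libraries lie below the DMSO libraries in all 4 families, most clearly for Snrp genes (787.5 to 888 against 1031 to 1043 CPM).

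Among the Snrp genes, the deepest changes were in genes of the Sm ring, but the ring also held the shallowest (range -0.45 to -0.16). Of the 7 ring genes 6 were lower, and only Snrpf, read at 7 to 17 counts a library, did not pass. Of all genes tested, 18.2% were lower, and of genes at 100 CPM or more, 33.6%. With so few genes this count is no result about the ring, and its contrast with the other Snrp genes was not tested. Snrpd1, which encodes SmD1, had 82.4, 75.2 and 71.8 CPM in CEP libraries and 103, 106 and 104 CPM in DMSO libraries. The 3 treated values were well under all DMSO values, and the log2 fold change was -0.45 ± 0.06 (SE, n = 3 each, adjusted p = 3.5e-05 by edgeR's quasi-likelihood test with Benjamini-Hochberg adjustment). Snrpd2, its partner in one Sm heterodimer (chr7:19149722-19153542), had 79.9, 71.9 and 66.0 CPM with CEP and 95.5, 97.2 and 105 CPM with DMSO. The groups did not overlap, at -0.45 ± 0.07 (adjusted p = 0.00015, edgeR). Snrpd3, which pairs with SmB (chr10:75517551-75537381), had 115, 102 and 103 CPM with CEP and 150.5, 140.3 and 141 CPM with DMSO, again apart, at -0.43 ± 0.06 (adjusted p = 4.5e-05, edgeR).

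Snrpg encodes SmG (chr6:86371304-86379328), and its level was 62.7, 66.7 and 57.2 CPM in CEP libraries and 82.1, 83.5 and 83.0 CPM in DMSO libraries. The DMSO libraries were within 2 CPM of each other and all above the treated ones, with a log2 fold change of -0.41 ± 0.06 (adjusted p = 0.00012, edgeR). Snrpe, for SmE, was lower by a similar amount (-0.36). Snrpb, for SmB, fell least of the called ring genes: 225, 215 and 213 CPM with CEP against 243, 252 and 253 CPM with DMSO, which did not overlap (-0.20 ± 0.05, adjusted p = 0.0037, edgeR). Per kilobase of the deposited exon length, Snrpd1 and Snrpb were at 156 and 146 CPM per kb in DMSO libraries and at 114 and 127 in CEP libraries. That length is 670 bases for Snrpd1 and 1711 for Snrpb, whereas all annotated exons cover 2052 and 1976 bases. How close the 2 genes stood, and which was higher, therefore depends on the length used. The log2 ratio of Snrpd1 to Snrpb was -1.51 ± 0.06 with CEP and -1.25 ± 0.02 with DMSO on the CPM scale (SD, n = 3 each, exact permutation p = 0.1, two-sided as for all such ratios).

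Transcripts of the Snrp genes for proteins special to U1 or U2 were lower too. This does not cover all U1 protein genes, as Snrnp70, outside the members, was called higher (0.19). Snrpb2 (U2 B″) and Snrpa1 (U2 A′) were lower at -0.29 each, the call for Snrpb2 ending under 5 of the 19 alternatives and that for Snrpa1 under none. Also lower were Snrpc and Snrpa (U1 proteins C and A) at -0.28 and -0.22. For Snrpc and Snrpa, CEP replicate 1 had 78.4 and 106 CPM, inside the DMSO ranges of 77.3 to 83.1 and 103 to 112 CPM, whereas the other CEP libraries had 58.6 and 60.4 CPM of Snrpc and 86.7 and 83.7 CPM of Snrpa. Their adjusted p-values by edgeR were 0.045 and 0.043, and each call ended under 7 of the 19 alternatives. Without CEP replicate 1 the changes were -0.44 in Snrpc and -0.35 in Snrpa. Snrpn, the imprinted SmN gene used mainly in brain, was at 2.45 to 3.25 CPM with CEP and 3.41 to 3.77 CPM with DMSO and did not pass (adjusted p = 0.18, edgeR). Snrpf (SmF) had 0.408 to 0.91 CPM with CEP and 0.563 to 1.12 CPM with DMSO. Of its exon sequence, 89.5% of the 50-base words also occur in other genes and 85.4% of the bases lie opposite Ccdc38 or 4933408J17Rik, so its count may not stand for its transcript, and the part of this was not tested.

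**Figure D3:**
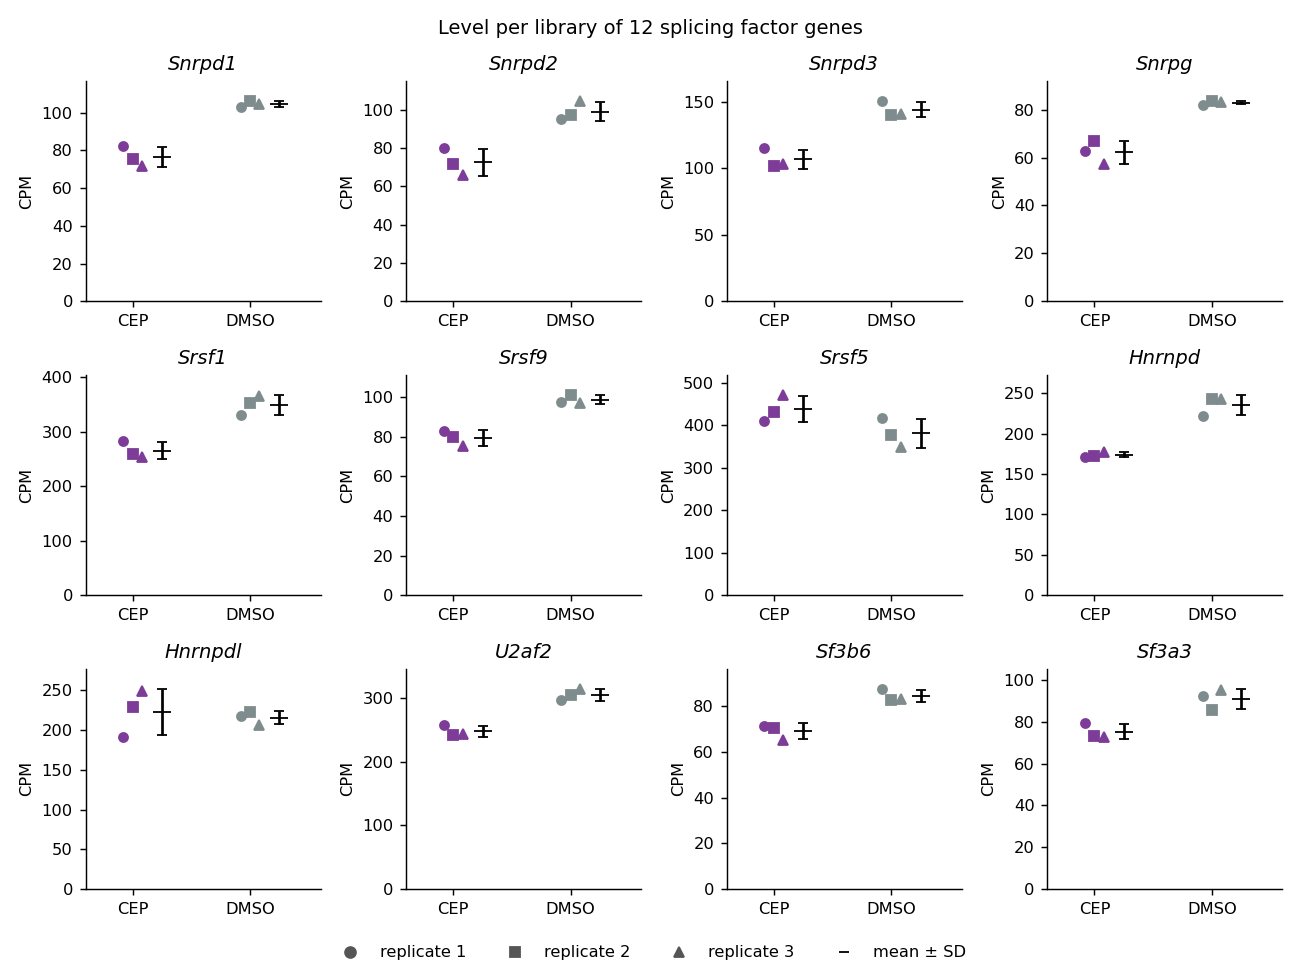
CPM (y axis, from 0) of 12 members in each library, CEP left and DMSO right, with marker shapes for the replicate numbers and bars for mean ± SD (n = 3). For 10 of the genes all CEP points lie below all DMSO points, whereas the points of Srsf5 and Hnrnpdl overlap.

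Most SR genes were lower, and Srsf5 alone was higher. Srsf1, the oncogenic SR protein that also acts in splice site choice and mRNA export (chr11:88047373-88053755), had 282, 259 and 253 CPM in CEP libraries and 330.2, 352 and 366 CPM in DMSO libraries. The groups were apart, with a log2 fold change of -0.40 ± 0.05 (adjusted p = 7.2e-05, edgeR's quasi-likelihood test). Srsf9, close to Srsf1 in structure (chr5:115327177-115333080), had 82.9, 79.8 and 75.2 CPM with CEP and 97.8, 101 and 97.1 CPM with DMSO. These too did not overlap (-0.31 ± 0.05, adjusted p = 0.00038, edgeR).

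Srsf10, a splicing repressor when dephosphorylated, had 132, 127 and 131 CPM with CEP and 165, 153 and 152 CPM with DMSO, a change of -0.27 ± 0.05 (adjusted p = 0.00058, edgeR). Srsf2, an exonic enhancer binding protein, had 206, 195.5 and 203 CPM with CEP and 240.5, 236 and 234 CPM with DMSO, a change of -0.23 ± 0.04 (adjusted p = 0.00095, edgeR). In both genes every treated library was below every DMSO library. Srsf7 (-0.23), Srsf3 (-0.20) and Srsf6 (-0.15) were also called lower, the call for Srsf6 ending under 5 of the 19 alternatives. Srsf4 and Srsf11 did not pass, at -0.04 and 0.01, and the sign of Srsf11 turned under 7 alternatives. Srsf12 had 0 counts in every library, which allows up to 3 counts, or 0.154 to 0.197 CPM, in each.

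Srsf5, an SR protein first described as a transcript induced in regenerating rat liver (chr12:80945504-80950507), had 411, 431 and 472 CPM in CEP libraries and 417, 377 and 349 CPM in DMSO libraries. DMSO replicate 1 was above CEP replicate 1, so the groups overlapped, although the test was passed (0.20 ± 0.07, adjusted p = 0.033, edgeR). The call ended under 10 of the 19 alternatives, among them upper quartile scaling, library totals and 5 of the 6 fits that left out a library, and its sign held in all 19. On the deposited exon lengths, Srsf5 was also the SR gene with the highest level per kilobase, at 287 CPM per kb with CEP and 249.7 with DMSO. The log2 ratio of Srsf1 to Srsf5 was -0.72 ± 0.18 with CEP and -0.12 ± 0.20 with DMSO on the CPM scale (SD, n = 3 each, exact permutation p = 0.1). The groups of ratios did not overlap. This pair was chosen after its values were seen, and it joins the SR gene that fell most to the only one called higher. Such a choice favours ratios that lie apart, so the test decides nothing.

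Within the hnRNPs the fall was wide but uneven. Hnrnpd, which encodes AUF1, a binder of AU-rich elements in mRNA (chr5:99955935-99978938), had 171, 173 and 178 CPM in CEP libraries and 221, 243 and 242 CPM in DMSO libraries. Every CEP library was far below every DMSO library, and the change of -0.44 ± 0.05 was the largest among the hnRNPs (adjusted p = 1.3e-05, edgeR's quasi-likelihood test). Its paralog Hnrnpdl lies 54638 bases away on chromosome 5 and behaved otherwise: 192, 229 and 248.9 CPM with CEP and 218, 223 and 207 CPM with DMSO. Those groups overlapped at 0.05 ± 0.08 (adjusted p = 0.67, edgeR). Without CEP replicate 1, Hnrnpdl was called higher (0.13, adjusted p = 0.0071, edgeR), and its sign turned under 3 other alternatives. The log2 ratio of Hnrnpd to Hnrnpdl was -0.35 ± 0.17 with CEP and 0.13 ± 0.10 with DMSO (SD, n = 3 each, exact permutation p = 0.1).

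Hnrnpa0, an A/B type protein bound to AU-rich RNAs, had 306, 294 and 301 CPM with CEP and 349, 397 and 390 CPM with DMSO, a change of -0.33 ± 0.05 (adjusted p = 0.00024, edgeR). Hnrnpc, which forms the core particle on nascent RNA and limits U2AF2 at Alu elements in human cells, had 322, 290.1 and 278 CPM with CEP and 380.1, 367 and 366 CPM with DMSO, at -0.32 ± 0.06 (adjusted p = 0.00042, edgeR). Hnrnpk, a poly(C) binding protein, had 650.5, 589 and 581 CPM with CEP and 704.5, 737 and 748 CPM with DMSO, at -0.27 ± 0.05 (adjusted p = 0.0014, edgeR). None of these 3 genes overlapped between groups, and for Hnrnpc and Hnrnpk CEP replicate 1 was the nearest to DMSO.

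On the deposited exon lengths, Hnrnpa1 had the highest level per kilobase of all 55 members, at 737 CPM per kb with CEP and 842 with DMSO. In CPM it had 937, 963 and 936 in CEP libraries and 1098, 1089 and 1055 in DMSO libraries, apart, with a change of -0.19 ± 0.05 (adjusted p = 0.0047, edgeR). That call ended under 1 of the 19 alternatives, the replicate block with length and GC correction (adjusted p = 0.059, edgeR). Its close relative Hnrnpa2b1, second in level per kilobase (657 with CEP and 691 with DMSO), was at -0.07 and did not pass. The log2 ratio of Hnrnpa1 to Hnrnpa2b1 was -0.20 ± 0.01 with CEP and -0.07 ± 0.02 with DMSO (SD, n = 3 each, exact permutation p = 0.1). Of the 3238 50-base words in all annotated Hnrnpa1 transcripts, 914 (28.2%) also occur in other genes, 20 of those 21 genes being pseudogenes. The deposited exon length is only 1283 bases, so the share within the expressed transcript may be much larger. This limits how surely its reads could be placed.

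The other called hnRNPs were Hnrnpa3 (-0.28), the U group scaffold genes Hnrnpu (-0.23), Hnrnpul1 (-0.22) and Hnrnpul2 (-0.13), and Hnrnpf (-0.20), Hnrnpr (-0.19) and Hnrnpll (-0.14). The calls of Hnrnpll and Hnrnpul2 ended under 5 and 6 of the 19 alternatives. Besides Hnrnpa2b1 and Hnrnpdl, the members not past the test were Hnrnpab, Hnrnph1, Hnrnph2, Hnrnph3, Hnrnpl and Hnrnpm, at -0.20 to 0.05. Hnrnpab was called lower under 6 of the 19 alternatives, DESeq2 and upper quartile scaling among them, and reached -0.32 without CEP replicate 1. Hnrnpl and Hnrnpm were also called lower without that library. In the F and H group, which binds runs of G, 1 of 4 genes (Hnrnpf) was called, and in the U group 3 of 3. The lower share was 18.2% of all genes tested and 33.6% of genes at 100 CPM or more. Hnrnpf shared 61.9% of its 50-base words with other genes and lost its call without CEP replicate 2 (adjusted p = 0.064, edgeR). With so few genes these counts are no result about the groups, and the contrast was not tested.

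Of the 11 tested genes of the 3′ splice site machinery 3 were called lower, or 27.3%, which lies between the 18.2% of all genes and the 33.6% of genes at 100 CPM or more and is no result about the family. Without CEP replicate 1 the count was 9 of 11, in a fit that called 6905 genes in all, against 5125 with that library. The lower share of all genes in that fit was not taken, so 9 of 11 is no result about the family either. The 3 called genes kept their calls under all 19 alternatives. U2af2, the U2AF subunit that reads the polypyrimidine tract (chr7:5062143-5079938), had 257, 241 and 243 CPM in CEP libraries and 296, 304 and 314 CPM in DMSO libraries. The groups were apart at -0.30 ± 0.05 (adjusted p = 0.00022, edgeR's quasi-likelihood test). Its partner U2af1, which reads the AG at the intron end, had 97.95, 95.96 and 92.5 CPM with CEP and 102, 109 and 102 CPM with DMSO. These did not overlap either, but the change of -0.13 ± 0.05 missed the threshold (adjusted p = 0.059, edgeR). The log2 ratio of U2af2 to U2af1 was 1.37 ± 0.04 with CEP and 1.55 ± 0.08 with DMSO on the CPM scale (SD, n = 3 each, exact permutation p = 0.1). U2af1l4 had 0 or 1 count in CEP libraries and 0 or 3 in DMSO libraries and was not tested.

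Sf3b6, the p14 subunit next to the branch point adenosine, had 71.5, 70.5 and 65.1 CPM with CEP and 87.7, 82.6 and 83.4 CPM with DMSO, a change of -0.29 ± 0.06 (adjusted p = 0.00099, edgeR). Sf3a3, a subunit of the U2-associated SF3A trimer, had 79.5, 73.4 and 72.8 CPM with CEP and 92.2, 85.6 and 95.1 CPM with DMSO, a change of -0.27 ± 0.06 (adjusted p = 0.002, edgeR). Both genes were apart between groups. Sf3b1, the scaffold of the complex and the target of pladienolide-type inhibitors, had 443, 426 and 416 CPM with CEP and 474, 457 and 440 CPM with DMSO. Its groups overlapped by 1 library, at -0.09 ± 0.05 (adjusted p = 0.14, edgeR). The log2 ratio of Sf3b6 to Sf3b1 was -2.63 ± 0.04 with CEP and -2.43 ± 0.04 with DMSO (SD, n = 3 each, exact permutation p = 0.1).

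Sf3b5, Sf3b3, Sf3b2 and Sf3a1 lay at -0.19 to -0.10 and did not pass, and Sf3a2 (0.00) and Sf3b4 (0.08) lay at or above 0. The sign of Sf3a2 turned under 9 of the alternatives, RLE and upper quartile scaling among them, and that of Sf3b4 under 3. The number of SF3 and U2AF genes called lower was 8 under upper quartile scaling and 9 without CEP replicate 1. The 6 within-family ratios given above were chosen after their values were seen. In each, the 3 CEP ratios were apart from the 3 DMSO ratios, which gives the smallest p possible, 0.1, and 0.1 after adjustment over the 6. As the pairs were picked from these same data, the ratios describe these libraries and their tests decide nothing.

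Read sharing touched some members more than others. In 12 of the 55, over 20% of the 50-base words of the exons also occurred in another gene, and 5 of the 32 lower members were among them (Hnrnpa1, Hnrnpa3, Hnrnpf, Snrpa and Srsf2), while 27 were at or under that share. These shares run over the words of all annotated transcripts, so the share within the expressed transcript may be larger. Among the 27, Hnrnpk had 1240 shared words at a deposited exon length of 2970 bases, U2af2 638 at 2183 and Srsf3 825 at 2618. The 27 may thus include members whose reads are hard to place. Exons of 20 members overlap a gene on the opposite strand. The strand setting used in counting is not given in the sources used here, so the levels of these genes are less certain. The members lie on 18 chromosomes, with 8 on chromosome 7, the most on any.

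Other genes of the splicing pathway were read from 9 lists, and most of these also held more lower than higher genes. Of all genes tested, 18.2% were lower and 20.1% higher, and of genes at 100 CPM or more, 33.6% were lower and 23.2% higher. Most tested genes lie at that level or above in the lists of U1 and U2 partners, of splicing regulators outside the hnRNP name, and of SR kinases and cofactors. For these lists the shares at 100 CPM or more are the nearer background. In the other lists most genes lie under that level, so the shares of all genes are nearer. The SMN complex with its Sm methylation partners, which loads the Sm ring onto snRNA, had 8 lower (53.3%) and 0 higher of 15 tested, with a median log2 fold change of -0.28. Gemin5, which recognises the snRNA, had 98.1, 82.7 and 85.3 CPM with CEP and 118, 107 and 114.5 CPM with DMSO (-0.35). The Lsm proteins, relatives of the Sm proteins that ride on U6 or decaying mRNA, had 8 lower (61.5%) and 0 higher of 13 (median -0.22). Among them Lsm6 had 42.1, 36.2 and 37.9 CPM with CEP and 51.6, 52.1 and 52.6 CPM with DMSO (-0.42). Both genes were lower in every treated library than in any DMSO library.

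The U4/U6.U5 tri-snRNP list counted 10 lower (47.6%) and 1 higher of 21 (median -0.17), with the smallest adjusted p in Snu13 (-0.37) and Prpf31 (-0.45), and with Prpf38b higher (0.17). U1 and U2 partners outside the members counted 9 lower (42.9%) and 2 higher (9.5%) of 21 (median -0.12). There the helicase Ddx39b (-0.26) was lower, while Snrnp70 (0.19), the U1-70K gene, and Sugp1 (0.19) were higher. Snrnp70 had 388, 422 and 454 CPM with CEP and 385, 354 and 369 CPM with DMSO, so all treated values were above the others, the lowest by little. Prp19 and catalytic step factors counted 7 lower (28.0%, near the background) and 1 higher of 25 (median -0.11), with Prpf19 (-0.35) and Isy1 (-0.59) lower and Syf2 higher (0.22). In the minor spliceosome list no gene of 10 was called lower and 1 (10.0%), Snrnp48, was higher (0.46), around a median of -0.10. That higher share lies under the 20.1% of all genes tested. With so few genes, these counts are no result about the list.

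Splicing regulators outside the hnRNP name counted 18 lower (47.4%) and 5 higher (13.2%) of 38 (median -0.13). Celf2 was lower (-0.50), with 65.8, 58.5 and 62.6 CPM in CEP libraries and 83.4, 88.5 and 91.8 CPM in DMSO libraries, which did not overlap. Rbm5 (0.26) and the epithelial regulator Esrp1 (0.32) were called higher. The groups of Esrp1 overlapped, with CEP replicate 1 at 25.3 CPM and DMSO replicate 2 at 25.5 CPM. Those of Rbm5 were only just apart, with CEP replicate 1 at 154.3 CPM and DMSO replicate 1 at 153.1 CPM. Nonsense-mediated decay and exon junction genes counted 8 lower (47.1%) and 1 higher of 17 around a median of -0.02, with Smg6 (-0.61) and Ncbp2 (-0.50) lower and Smg8 higher (0.22).

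The kinases and cofactors of SR proteins formed the only one of the 9 lists with a median above 0 (0.13). Of 27 tested, 9 were higher (33.3%) and 6 lower (22.2%). That lower share lies between the 18.2% of all genes and the 33.6% of genes at 100 CPM or more. Clk2, a kinase that phosphorylates SR proteins in the nucleus, had 52.5, 57.5 and 62.1 CPM with CEP and 44.0, 45.4 and 44.7 CPM with DMSO (0.36). Clk3, its relative, had 66.4, 70.4 and 74.5 CPM with CEP and 55.3, 59.0 and 56.7 CPM with DMSO (0.30). In both, every treated library was above every DMSO library. Tra2b, an SR-like splicing activator, was lower (-0.34), as was Rsrc1 (-0.36). Whether this list differed from the SR genes themselves was not tested.

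**Figure D4:**
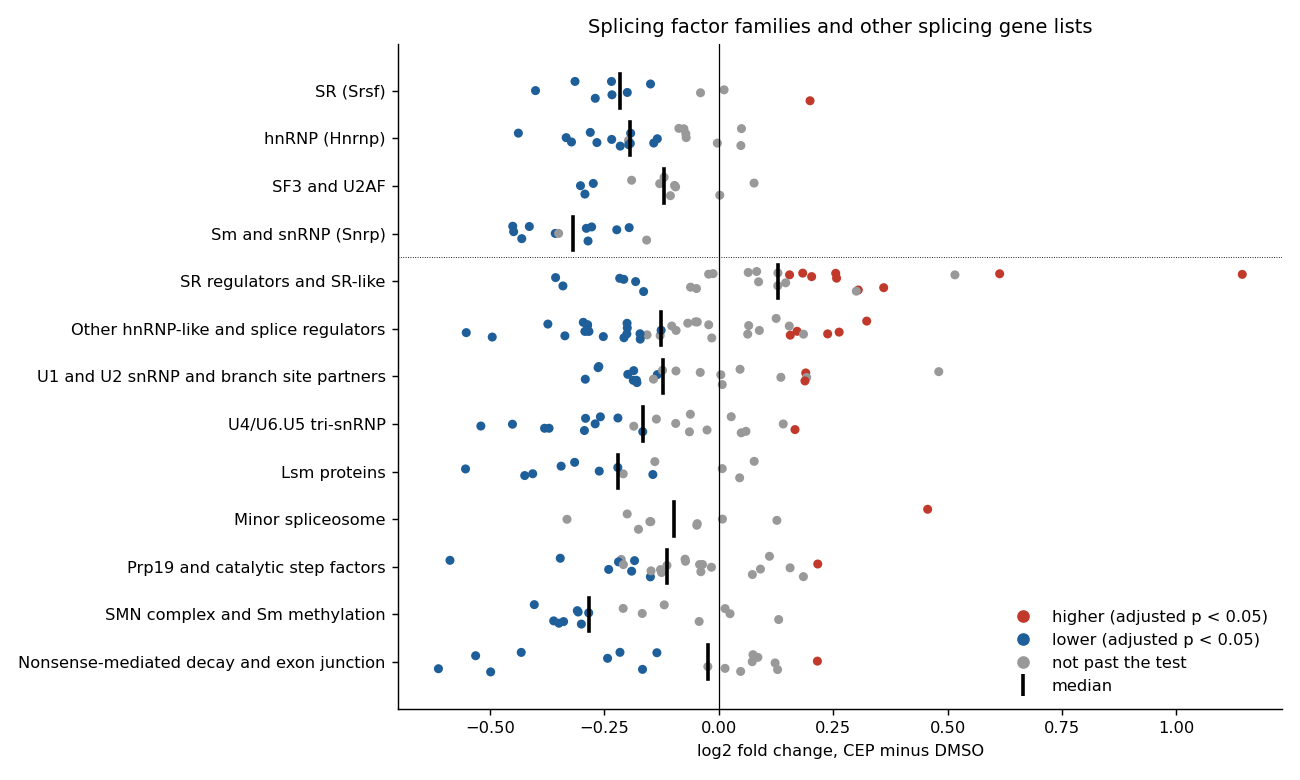
Log2 fold change (CEP minus DMSO, x axis) of each tested gene in the 4 member families (above the dotted line) and the 9 other splicing lists (below it); red is higher, blue lower, grey not past edgeR's test, and the black bar is the median. Medians lie left of 0 in every set except SR regulators and SR-like genes (0.13).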

How the data were processed

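Per the file headers, the authors deposited unnormalized whole-number read counts for each Ensembl gene in 6 libraries, placed on GRCm38.p6. Poly(A) RNA and a stranded dUTP kit were used per the labels' protocols. The submitters' processing notes list HISAT2, HISAT, HTSeq, DESeq2 and GRCm38 without roles. For the strand setting, annotation release and versions, nothing is given in the sources used here. The library source label speaks of single cells, but the protocols and the 6 columns describe bulk RNA. Samples were grouped by title, and no column was left out.

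Low genes were removed by filterByExpr of edgeR 4.0.16 (count minimum of 10, total minimum of 15). The counts were TMM-scaled and compared, CEP minus DMSO, by edgeR's robust quasi-likelihood test, and Benjamini-Hochberg adjustment ran over all 13405 genes with 0.05 as the threshold. Each SE is the size of the log2 fold change divided by the root of F. CPM use TMM-scaled library sizes, and CPM per kb use the table's exon length, which for 52 of the 55 members is shorter than the union of all annotated exons. Floors cover counting error only. The test was also run on simulated counts: unchanged genes made up close to the nominal share of calls where dispersions followed the fitted trend, and clearly more where each gene's own dispersion was drawn. The pass condition was placed on the first of these after both had been seen, so calls near the threshold are less certain than their adjusted p says. Shared words, exon overlaps and GC content came from GENCODE mouse release M21 on the same build, and start windows from RefSeq. Python 3.11.15, R 4.3.3, limma 3.58.1 and DESeq2 1.42.0 were also used.

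The members, lists, motifs and alternatives were chosen with earlier results of these data known. Values per library are given for up to 4 members per family and direction with the smallest adjusted p and for the member of each family with the highest level per exon length, and lists name up to 2 genes per direction. A few genes that these rules take are not reported here. Snrpc, Snrpa, Snrpf, Snrpn, U2af1, U2af1l4, Sf3b1, Hnrnpdl and Hnrnpa2b1 were given further values after these had been seen. Same-numbered libraries did not deviate together (correlations of -0.046, 0.024 and -0.035), so the numbers were not read as pairs. Alternatives were RLE, upper quartile and library total scaling, DESeq2, limma-voom, 3 other filters, a replicate block, length and GC correction (loess span 0.5), each library left out, a threshold of 0.01 and protein-coding genes only.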

Additional observations from a re-analysis of the deposited data

How the results depend on the processing

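Under the 19 alternatives, 23 of the 32 lower calls were kept in all, as were 0 of 1 higher calls. No member called lower turned sign in any, and the Sm ring genes Snrpd1, Snrpd2, Snrpd3, Snrpg, Snrpe and Snrpb kept their calls throughout. Family medians stayed below 0 in every setting: Snrp -0.384 to -0.285, SR -0.261 to -0.192, hnRNP -0.226 to -0.156, SF3 and U2AF -0.183 to -0.083, while the median of all genes ran from -0.049 to 0.009. The number of SF3 and U2AF genes called lower, 3 as reported, was 8 with upper quartile scaling, 5 with library totals, 6 with length and GC trends removed, 5 with protein-coding genes only and 3 to 9 with a library left out. The 9 came without CEP replicate 1. With a library left out, lower calls were 7 to 10 for Snrp (10 as reported), 9 to 15 for hnRNP (12) and 6 to 7 for SR (7), and at the threshold of 0.01 they were 7, 10 and 6. The 1 higher SR call (Srsf5) went to 0 with upper quartile scaling, with library totals and at an adjusted p under 0.01, and was 0 to 1 with a library left out, 1 only without DMSO replicate 1. Higher hnRNP calls were 0 to 1 with a library left out, the 1 being Hnrnpdl without CEP replicate 1. All genes called numbered 5125, 3307 at the threshold of 0.01, and 3735 to 6905 with a library left out. The causes of these shifts were not tested, except that a stricter threshold calls fewer genes by construction.

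With the replicate number as a block, 4896 genes were called, the higher SR count was 0, and lower calls numbered 11 hnRNP and 9 Snrp genes, Hnrnpul2 (adjusted p = 0.068) and Snrpa (adjusted p = 0.052, both edgeR) having lost theirs. With the block and length and GC correction together it was also 0, 6 SF3 and U2AF genes were lower, and Hnrnpa1 lost its call. The numbers share no known pairing, so this is only a change of model. With 3 libraries a group, low counts limit what can be said of Snrpf (7 to 17 counts), Snrpn, Srsf12 and U2af1l4. Whether depth, a low level or, for Snrpf, the placing of reads lay behind these counts was not tested. In contrast, 51 of the 55 members had at least 300 counts in each library.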
